A study of Mus musculus with 4 samples.

Results

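The genes of 7 secreted acute-phase proteins, Saa1, Saa2, Saa3, Lcn2, Slpi, Chil1 and Serpina3n, were followed in cells of mouse tail intervertebral discs, out of 32285 genes in the count tables. They were selected on their UMI counts (unique molecular identifiers, counted transcript molecules) in these same libraries, across cell groups and in injured against control discs of each round. Their levels by cell group and their injured-to-control differences are therefore descriptions without a test. The discs came from female wild-type C57BL/6 mice aged 12 weeks. Injured discs were the coccygeal levels CC5/6 to CC9/10, each punctured on both sides with a 30G needle 7 days before collection. Control discs were the unpunctured levels CC12/13 to CC16/17 of the same tails, so injury and tail level cannot be told apart. For each group 30 discs of 6 mice were pooled into a suspension that was snap frozen, thawed, sorted with DAPI for viable cells and run on the 10x 3′ version 3 chemistry, in 2 rounds, giving 4 libraries. No animal is separable within a pool, so 2 libraries per group are the only replicates.

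Acute-phase proteins are secreted when injury or infection releases cytokines such as interleukin-1, tumour necrosis factor and interleukin-6, which act through NF-kappaB, STAT3 and C/EBP factors. The liver is their best known source, but chondrocytes, fibroblasts and epithelia also make several of them. Saa1, Saa2 and Saa3 encode serum amyloid A apolipoproteins, of which Saa3 is the form made mainly outside the liver. Lcn2 encodes lipocalin 2, which binds iron-loaded siderophores. Slpi and Serpina3n encode inhibitors of serine proteases, including those of leukocytes. Chil1 encodes the chitinase-like protein known in cartilage as YKL-40 or gp39, which binds chitin without cleaving it.

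The 3 Saa genes are neighbours. On GRCm38 (GENCODE M21), Saa3 lies at chr7:46711998-46715700 on the minus strand, Saa1 (ENSMUSG00000074115) at chr7:46740497-46742980 on the minus strand and Saa2 (ENSMUSG00000057465) at chr7:46751790-46754313 on the plus strand. Saa3 and Saa1 are 24796 bases apart, and Saa1 and Saa2 are 8809 bases apart and transcribed away from each other. Lcn2 lies at chr2:32384633-32388252 and Slpi at chr2:164354070-164389095, both on the minus strand. Chil1 lies at chr1:134182176-134190181 and Serpina3n at chr12:104406729-104414329, both on the plus strand. The longest coding transcripts of Saa1 and Saa2 are identical at 573 of 655 aligned positions (87.5%), and their last 250 bases, the part a 3′ tag reads, at 91.3%, with an identical run of up to 39 bases there. How reads were split between the pair depends on the authors' counting, so single values of Saa1 and Saa2 are uncertain.

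The sequences just before the start sites show how far the pair shares its upstream region, which no other pair of the 7 does. Over the 250 bases before the RefSeq start, Saa1 and Saa2 were identical at 238 of 251 aligned positions (94.8%), and the other 20 pairs at 46.0% to 53.9%. The upstream bases outside any annotated exon are printed below from RefSeq (GRCm38.p6), 5′ to 3′ on the gene's strand. Saa2 therefore ends 43 bases before its RefSeq start, and Saa1 was cut alike to match it. For Saa1 (chr7:46743024-46743230, minus) and Saa2 (chr7:46751583-46751789, plus), capitals mark the 12 bases of each that the alignment left unmatched. Saa3 (chr7:46715701-46715926, minus) is shown beside them in lower case, because it shares the locus but not the sequence.
Saa1: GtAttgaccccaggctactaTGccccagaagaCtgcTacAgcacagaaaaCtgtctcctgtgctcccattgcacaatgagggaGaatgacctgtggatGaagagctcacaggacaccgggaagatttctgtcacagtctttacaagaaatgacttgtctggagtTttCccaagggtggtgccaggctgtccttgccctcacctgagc
Saa2: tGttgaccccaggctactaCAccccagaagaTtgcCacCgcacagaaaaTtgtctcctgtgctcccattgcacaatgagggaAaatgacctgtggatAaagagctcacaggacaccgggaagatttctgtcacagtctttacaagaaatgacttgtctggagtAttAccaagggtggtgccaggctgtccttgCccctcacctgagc
Saa3: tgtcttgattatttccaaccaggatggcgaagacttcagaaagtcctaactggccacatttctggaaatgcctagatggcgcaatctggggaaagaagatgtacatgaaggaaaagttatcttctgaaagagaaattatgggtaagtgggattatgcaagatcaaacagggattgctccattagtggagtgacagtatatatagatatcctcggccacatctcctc

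Motifs of the factors named above were searched on both strands of the 300-base promoters (250 bases before and 50 after the start) of the 7 genes. The 10-letter NF-kappaB consensus was found in Chil1 only, at bases -179 to -170 (chr1:134181977-134181986), and 8.46% of 32851 RefSeq promoters hold a match. The C/EBP motif TTGCNNCAA and the STAT motif TTCNNNGAA were found in none of the 7, and 2.08% and 8.30% of all promoters hold them. The window of Chil1 (chr1:134181906-134182155, plus) is printed because it holds the only match, in capitals, which fits the consensus on both strands. The absence of these letters from the other windows says nothing of the factors themselves.
Chil1: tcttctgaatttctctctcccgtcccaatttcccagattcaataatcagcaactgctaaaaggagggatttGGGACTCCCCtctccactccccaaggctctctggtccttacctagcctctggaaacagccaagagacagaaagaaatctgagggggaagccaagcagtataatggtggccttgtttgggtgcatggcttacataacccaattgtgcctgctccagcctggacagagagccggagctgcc

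A cell was a barcode with at least 250 detected genes, which gave 378 and 856 control cells and 778 and 1834 injured cells in rounds 1 and 2. The median cell held 1062 and 836 UMIs in the control libraries and 7034 and 4635 in the injured ones, so control cells were shallower in both rounds. In round 1 the control table listed 444 barcodes, all of which also carried UMIs in the injured table. Of these, 225 held few UMIs in the injured library, 115 held a similar number and 104 held far more there, and 159 of the 378 control cells belong to the latter 2 kinds. The levels of the 7 genes over all cells and their round 1 ratios are also given without those barcodes, and values include them unless stated. Cells with cartilage and fibroblast markers were present in every library, and of 102 nucleus pulposus-like cells 96 were in the control libraries. Cells were grouped into 17 clusters computed without the 7 genes, and 11 were named from their markers, so cell names are rebuilt here and not the authors'.

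Saa1, an apolipoprotein gene of the near-identical pair, stood at 731 and 214 CPM (counts per 1e6 UMIs, rounds 1 and 2) in control discs and at 781 and 806 CPM in injured discs. The round 1 control was close to both injured libraries and the round 2 control lay well below them. Saa2 stood at 315 and 31.5 CPM in control and at 170.2 and 147 CPM in injured discs, so that the control libraries enclosed the injured ones. The fitted log2 change over all cells was 0.80 ± 0.579 (SE, n = 2 libraries per group) for Saa1 and -0.08 ± 0.863 for Saa2. With the rounds as a replicate block (both groups come from the same tails), it was 1.06 ± 0.401 for Saa1 and 0.63 ± 0.537 for Saa2. The value of Saa2 rested on the round 1 control library: without it the log2 change was 2.43, and without the round 2 control library it was -0.94. For Saa1 the corresponding values were 2.00 and 0.18.

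Saa3 was near the floor in control discs, with 7 and 4 UMIs (6.58 and 1.85 CPM), and reached 26.0 and 233 CPM in injured discs. Both injured libraries lay above both controls, but they differed from each other more than for any other of the 7 genes: 2464 of its 2650 UMIs came from the round 2 injured library. The injured-to-control ratio was 3.95 (95% Poisson interval 1.88 to 9.98) in round 1 and 126 (49.2 to 463) in round 2. Its fitted log2 change was 5.22 ± 1.21 over all cells, and 2.83 without the round 2 injured library. Intervals here and below cover counting error only.

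Lcn2, the siderophore-binding lipocalin, stood at 495 and 497 CPM in control and at 1617 and 1329.7 CPM in injured discs. The controls agreed within counting error and lay below both injured libraries, a ratio of 3.27 in round 1 and 2.68 in round 2. Slpi, which inhibits neutrophil elastase and cathepsin G, stood at 89.4 and 46.8 CPM in control and at 385 and 304 CPM in injured discs, and Serpina3n at 27.3 and 18.1 CPM in control and 241 and 147 CPM in injured discs. Neither gene's groups overlapped. The ratio of Slpi was 4.30 in round 1 and 6.49 in round 2, and that of Serpina3n 8.82 and 8.15. Chil1 stood at 119 and 102 CPM in control and at 242 and 192 CPM in injured discs, ratios of 2.04 and 1.89. Its groups did not overlap either, although the margin was the smallest of these 4 genes.

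**Figure D1:**
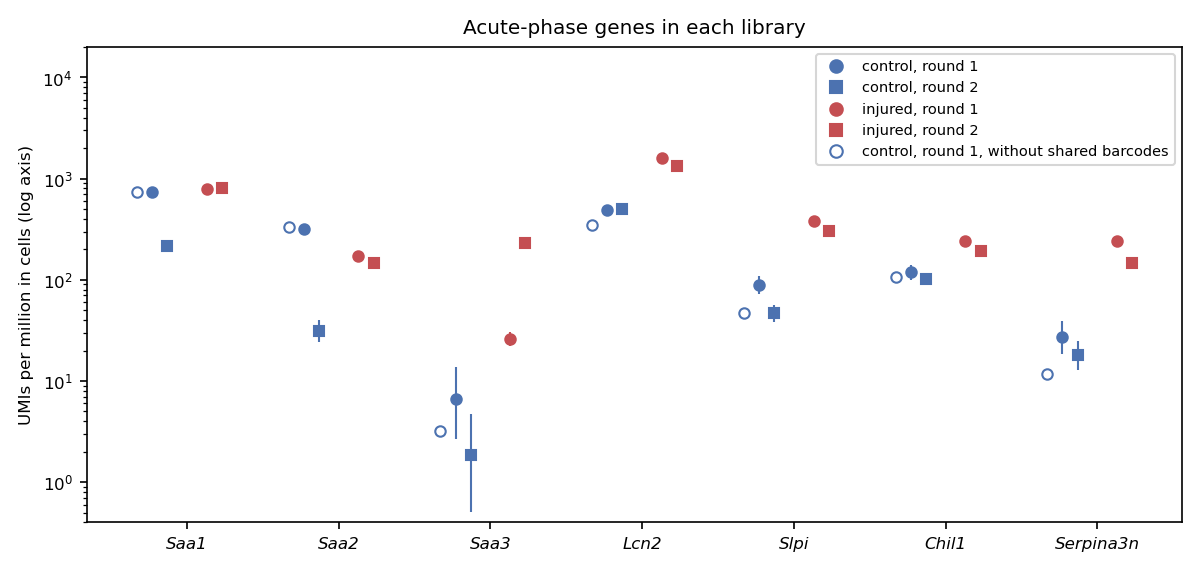
CPM in cells (log axis) of the 7 genes in each library, with 95% Poisson intervals; filled symbols are control (blue) and injured (red) libraries of round 1 (circles) and round 2 (squares), and open circles are the round 1 control library without shared barcodes. Lcn2, Slpi, Chil1, Serpina3n and Saa3 are higher in both injured libraries than in both controls, and so is Saa1, though narrowly in round 1. The round 1 control of Saa2 at 315 CPM lies above both injured libraries.

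The fitted log2 changes over all cells were 1.63 ± 0.355 for Lcn2, 2.40 ± 0.443 for Slpi, 1.04 ± 0.345 for Chil1 and 3.17 ± 0.441 for Serpina3n. In that fit edgeR's quasi-likelihood test called 10 of 11987 genes (0.0834%), none of them among the 7, and 946 genes had an unadjusted p under 0.05. With the replicate block it called 803 genes (6.70%), 5 of the 7 among them: Saa3, Lcn2, Slpi, Chil1 and Serpina3n. Both injured libraries lay above both controls for 6 of the 7, Saa2 being the exception, and for 16.4% of all genes tested. The median log2 change was 1.63 over the 7 and -0.01 over all genes tested. Because these contrasts chose the genes, nothing is read from the counts. Leaving out the shared barcodes of round 1 widened the round 1 ratios of Lcn2 to 4.69, Slpi to 8.28, Serpina3n to 20.8, Saa3 to 8.23 and Chil1 to 2.29. It left Saa1 at 1.07 and Saa2 at 0.519.

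A few cells carried much of the control signal. In the round 2 control library a cell of 8145 UMIs held 190 of 462 Saa1, 345 of 1073 Lcn2 and 174 of 220 Chil1 UMIs, and these genes made up 8.73% of its UMIs together with the other members. Without the cell richest in each gene, Chil1 in that library was at 21.4 CPM in place of 102, Lcn2 at 338 CPM in place of 497 and Saa1 at 126 CPM in place of 214. In the injured libraries the richest cell held at most 9.88% of the UMIs of any of the 7 genes, except for Saa3, where it held 42.3% and 15.8%.

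By cell group, the 7 genes were found mostly in cells with cartilage-type matrix markers (Acan, Col2a1, Sox9, Hapln1, Comp), called inner annulus or cartilage-like. That class held 1969 of 3846 cells and 70.3% of all UMIs. It held 95.3% of Saa1, 94.5% of Saa2, 89.3% of Saa3, 96.4% of Lcn2, 92.9% of Slpi, 94.9% of Chil1 and 95.2% of Serpina3n UMIs. In this class Lcn2 was at 712 and 769.9 CPM in the control libraries and at 1871 and 1999 CPM in the injured ones. In outer annulus or fibroblast-like cells it was at 27.5 and 37.8 CPM in control and at 208 and 134 CPM in injured libraries. Nucleus pulposus-like cells, nearly all of them control, were at 16 and 76.9 CPM in the control libraries, from 1 and 8 UMIs. Pooled over libraries, endothelial-, macrophage- and mural-like cells were at 19.7 to 23.5 CPM. After thinning each cell to 500 UMIs, 28.6% of inner class cells held an Lcn2 UMI, 2.33% of macrophage-like and 0% of endothelial-like cells. Unthinned, these shares were 58.0%, 6.87% and 7.81%, at median depths of 5775, 3308 and 3204 UMIs.

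The inner class was made up of 4 clusters, and the genes were spread unevenly among them. Although the 7 genes were kept out of the clustering, Saa1, Chil1 and Lcn2 are among the 10 leading genes of the largest cluster (703 cells), which is called here by the others, Gdf5 and Hapln1. The remaining 3 were led by Cxcl2, Nos2 and Mmp3 (428 cells), by Cnmd and Grem1 (458 cells) and by Fmod, Comp and Prg4 (380 cells). Values here are those of the injured libraries of rounds 1 and 2, since most control cells sat in 1 of the clusters. Lcn2 was at 2503 and 1839.6 CPM in the Cxcl2 cluster, at 1935 and 2029 CPM in the Cnmd cluster, at 1021 and 3190.3 CPM in the Gdf5 cluster and at 507 and 673 CPM in the Fmod cluster. The Fmod cells were the lowest in both rounds, whereas the order of the other 3 differed between rounds. Saa1 was at 1899 and 1730.2 CPM in the Cnmd cluster, at 1167 and 798 CPM in the Cxcl2 cluster, at 463 and 2139.9 CPM in the Gdf5 cluster and at 21.1 and 139 CPM in the Fmod cluster. For Saa1 the Gdf5 cells were thus below the Cnmd and Cxcl2 cells in round 1 and above both in round 2. Saa2 was at 486 and 683 CPM in the Cnmd cells, at 251 and 107 CPM in the Cxcl2 cells, at 78.8 and 354 CPM in the Gdf5 cells and nearly absent from the Fmod cells (1.32 and 8.61 CPM). In round 1 the Cnmd value rested on 1 cell with 113 of 189 UMIs, and without the richest cell of each cluster it was 200.4 CPM, beside 223 CPM in the Cxcl2 cells. Chil1 was at 713 and 614 CPM in the Cnmd cells and lowest in the Fmod cells, at 121 and 75.3 CPM. In round 2 its richest Cnmd cell held 105 of 267 UMIs, and without the richest cell of each cluster the Cnmd cells were at 377 CPM and the Gdf5 cells at 402 CPM.

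The protease inhibitors and Saa3 were distributed otherwise. Slpi was at 619 and 475 CPM in the Cxcl2 cluster, at 327 and 255 CPM in the Cnmd cluster, at 235 and 438 CPM in the Fmod cluster and at 67.0 and 463 CPM in the Gdf5 cluster. In round 1 the Cxcl2 cells stood highest, whereas in round 2 the Cxcl2 and Gdf5 clusters did not differ beyond counting error (95% intervals 437 to 516 and 438 to 489 CPM), and without the richest cell of each the Cxcl2 cells were at 339 CPM and the Gdf5 cells at 426 CPM. Serpina3n was at 377 and 251 CPM in the Cxcl2 cluster, at 246 and 269 CPM in the Fmod cluster, at 211 and 202 CPM in the Cnmd cluster and at 56.7 and 158 CPM in the Gdf5 cluster. Both inhibitors were therefore found in the Fmod cells, in which Saa1 and Saa2 were low. Saa3 was at 4.73 and 511 CPM in the Gdf5 cluster, at 21.1 and 292 CPM in the Fmod cluster, at 37.8 and 87.5 CPM in the Cxcl2 cluster and at 48.9 and 29.9 CPM in the Cnmd cluster. These values rest on few cells. In round 1 the richest cell held 74 of 125 Saa3 UMIs of the Cxcl2 cluster, 13 of 19 of the Cnmd cluster and all 16 of the Fmod cluster, so no order can be read there. In round 2 it held 389 of 678 in the Fmod cluster, which without it was at 125 CPM, and 256 of 1397 in the Gdf5 cluster, which without it was at 418 CPM. An unnamed cluster led by mitochondrial genes (362 cells, median 951 UMIs) held Saa3 at 33.5 and 1396 CPM in the injured libraries, Saa1 at 355 and 1933 CPM and Lcn2 at 537 and 1422 CPM. In the inner class of the round 2 injured library Saa3 was at 328, Saa1 at 1179 and Lcn2 at 1999 CPM.

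**Figure D2:**
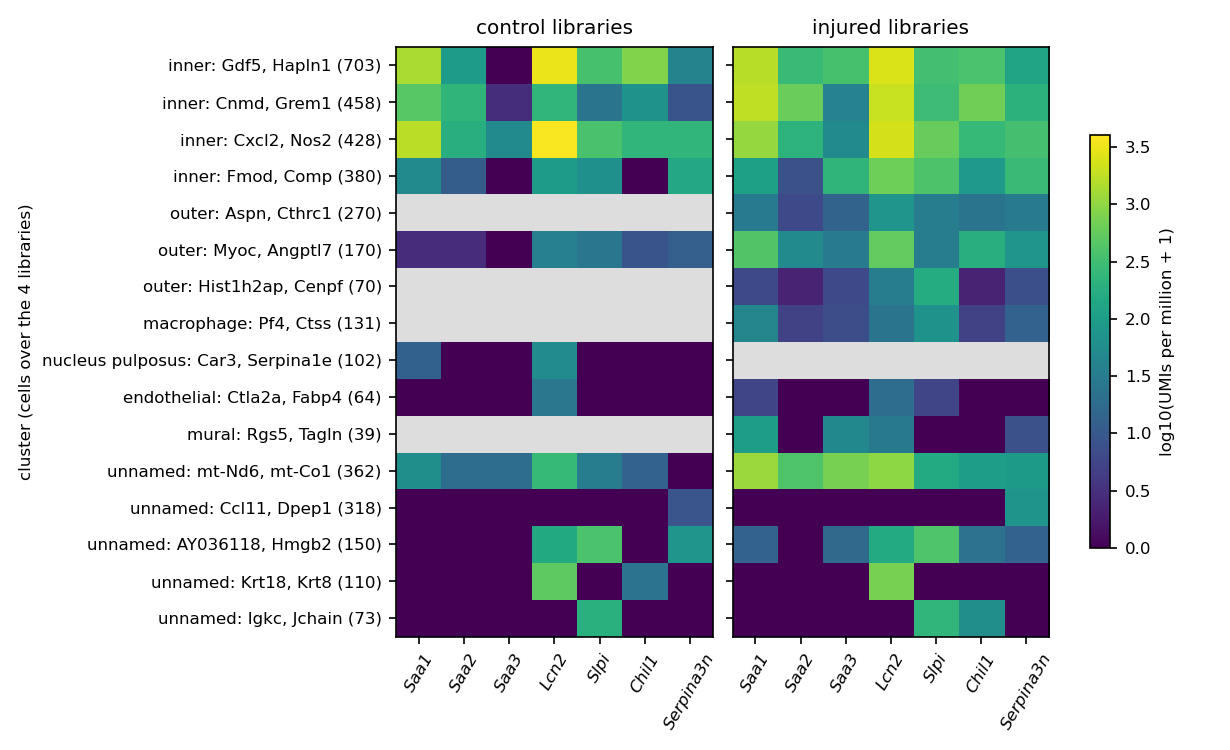
Level of the 7 genes, as log10(CPM + 1), in each cluster of at least 20 cells (rows, with the class, leading genes and number of cells) for the pooled control and the pooled injured libraries; grey marks fewer than 10 cells. Lcn2 is high in the injured libraries of the 4 inner clusters and of the unnamed cluster led by mitochondrial genes, and low in the macrophage, endothelial and Aspn clusters.

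In the named classes outside the inner class some sums rested on 1 cell. In outer annulus or fibroblast-like cells 224 of 302 Saa1 UMIs came from 1 cell, and in macrophage-like cells 31 of 33 Slpi UMIs did. The Myoc and Angptl7 cluster of the outer class held Lcn2 at 25.6 and 40.0 CPM in control and at 349.7 and 604 CPM in injured discs, but 1 cell held 42 of the 44 Lcn2 UMIs of its round 1 injured library. Without the richest cell of each library the cluster was at 6.57 and 35.2 CPM in control and at 16.6 and 384 CPM in injured discs, so that the groups overlapped. The Myoc and Angptl7 cluster held 28 of 33 and 49 of 52 outer class cells in control, but 18 of 32 and 75 of 393 in injured libraries. Sums of the outer class, here and below, thus compare unlike mixtures of clusters. Over the whole outer class the log2 change was 2.28 ± 0.512 for Lcn2, 2.67 ± 0.898 for Slpi and 1.51 ± 0.697 for Serpina3n, and the other 4 genes did not pass the filter on low counts. The injured libraries were above both controls for these 3 genes, as for 25.1% of the 4793 genes tested. Slpi stood at 32.9 and 17.6 CPM in control and at 298 and 37.2 CPM in injured discs, and 1 cell held 89 of the 96 UMIs behind the 298 CPM. Without the richest cell of each library Slpi was at 11.7 and 0 CPM in control and at 24.1 and 31.2 CPM in injured discs, which did not overlap but rested on 2 and 0 control UMIs. Lcn2 stood at 27.5 and 37.8 CPM in control and at 208 and 134 CPM in injured discs, and without the richest cells at 11.2 and 33.2 CPM against 78.8 and 103 CPM. In this class 69 genes were called (1.44%), none of the 3, and 456 (9.51%) with the replicate block, 2 of the 3. Nothing is read from the calls of these selected genes.

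Within the inner class the direction in each round was that of all cells, except for Saa1 in round 1. Lcn2 had the values given above, and Slpi stood at 115 and 66.1 CPM against 426 and 443 CPM, and Serpina3n at 38.4 and 23.8 CPM against 277 and 216 CPM. Injured libraries were above controls for these 3 genes. Without the shared barcodes the round 1 control was at 60.1 CPM for Slpi and 15.8 CPM for Serpina3n, which moved the round 1 ratio of Slpi from 3.69 to 7.08 and that of Serpina3n from 7.21 to 17.5. Saa1 stood at 1098 and 349.6 CPM against 909 and 1179 CPM and Saa2 at 474 and 50.7 CPM against 196 and 211 CPM, so the round 1 control was as high as or higher than its injured partner. The Cnmd and Grem1 cluster held most control cells of this class (311 of 461) and the Gdf5 cluster most injured cells of any cluster (630), which makes these sums comparisons of unlike mixtures. Both injured libraries lay above both controls for 5 of the 7 genes, against 14.1% of 10678 genes. Without the block edgeR called 0% of genes (793 at an unadjusted p under 0.05, and 96 called by DESeq2), and with it 7.71%, 4 of the 7 among them. As over all cells, nothing is read from the calls of the selected genes.

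The Cnmd and Grem1 cluster had 100 and 211 control and 46 and 101 injured cells and no shared barcode. It was picked after the data were seen, and it is not 1 kind of cell. At a Leiden resolution of 2 most of it fell into a part led by Grem1 and Cnmd, with 19 and 205 control and 3 and 57 injured cells, and a part led by Cytl1 and Plau, with 78 and 6 control and 37 and 39 injured cells. The controls of the rounds are thus mostly different parts, and the injured cells are unlike mixtures of them. Of the rest, 6 and 4 injured but 1 and 0 control cells fell into a part led by Mmp10 and Ccl2. In its injured cells Saa1 was at 4828 and 5715 CPM, Lcn2 at 4199.8 and 8204 CPM and Slpi at 229 and 1682 CPM. For Saa1 and Lcn2 this lay above the whole cluster. In the whole cluster Lcn2 stood at 474 and 83.9 CPM in control cells and at 1935 and 2029 CPM in injured cells. Chil1 stood at 161 and 11.4 CPM against 713 and 614 CPM, and Serpina3n at 15.1 and 3.11 CPM against 211 and 202 CPM. For all 3 genes the injured libraries were close while the controls differed several-fold, the round 2 control being the lower. Without the richest cell of each library the injured values were 1591 and 1411 CPM for Lcn2 and 162 and 164 CPM for Serpina3n. Those of Chil1 were 619 and 377 CPM, so its closeness rested on single cells. Slpi stood at 60.3 and 0 CPM in control and at 327 and 255 CPM in injured cells, and its 0 came from 965967 UMIs in 211 cells. Saa3 stood at 5.02 and 0 CPM against 48.9 and 29.9 CPM, under its level in the Gdf5 cluster of the round 2 injured library (511 CPM). Saa1 stood at 956 and 147 CPM against 1899 and 1730.2 CPM. Saa2 stood at 514 and 51.8 CPM against 486 and 683 CPM, the only one of the 7 whose groups overlapped in these cells, and without the richest cell of each library at 421 and 42.9 CPM against 200.4 and 493 CPM. The groups of the other 6 did not overlap without those cells either.

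Within the Grem1 and Cnmd part, as within the Cytl1 and Plau part, at least 10 cells per group were present in 1 round only. In the round 1 cells of the Cytl1 and Plau part, Lcn2 stood at 515 CPM in control and 1465 CPM in injured discs, Chil1 at 185 and 665 CPM, Slpi at 70.2 and 355 CPM and Serpina3n at 17.6 and 189 CPM. Saa1 (1114 and 1279.7 CPM) and Saa2 (597 and 505 CPM) were nearly level there. In the round 2 cells of the Grem1 and Cnmd part, Lcn2 stood at 86.2 CPM in control and 1678 CPM in injured discs, Saa1 at 138 and 1537 CPM, Saa2 at 40.5 and 706 CPM, Chil1 at 11.7 and 864 CPM and Serpina3n at 3.19 and 119 CPM. Slpi was at 0 and 5.43 CPM in that part, so its round 2 signal in the cluster came from the other cells. These values have no replicate.

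In these cells the log2 changes were 1.83 ± 0.770 for Saa1, 1.18 ± 0.871 for Saa2, 4.22 ± 0.996 for Saa3, 2.94 ± 0.767 for Lcn2, 3.46 ± 1.19 for Slpi, 3.07 ± 0.967 for Chil1 and 4.70 ± 0.675 for Serpina3n. Both injured libraries lay above both controls for 6 of the 7 genes, against 9.67% of 5965 genes. No gene was called by edgeR without the replicate block (0%), 170 had an unadjusted p under 0.05 and DESeq2 called 12. With the block 116 genes (1.94%) were called, all 7 among them. Since the genes were selected on injured against control values and the cluster after the data were seen, nothing is read from these calls. After thinning to 500 UMIs, the share of these cells with an Lcn2 UMI was 25% and 4.78% in control and 39.1% and 25% in injured libraries. On this measure the round 1 control and the round 2 injured library were level, so the higher sum in the latter came with more UMIs per positive cell: its richest cell held 290 Lcn2 UMIs, against 38 in the round 1 control.

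**Figure D3:**
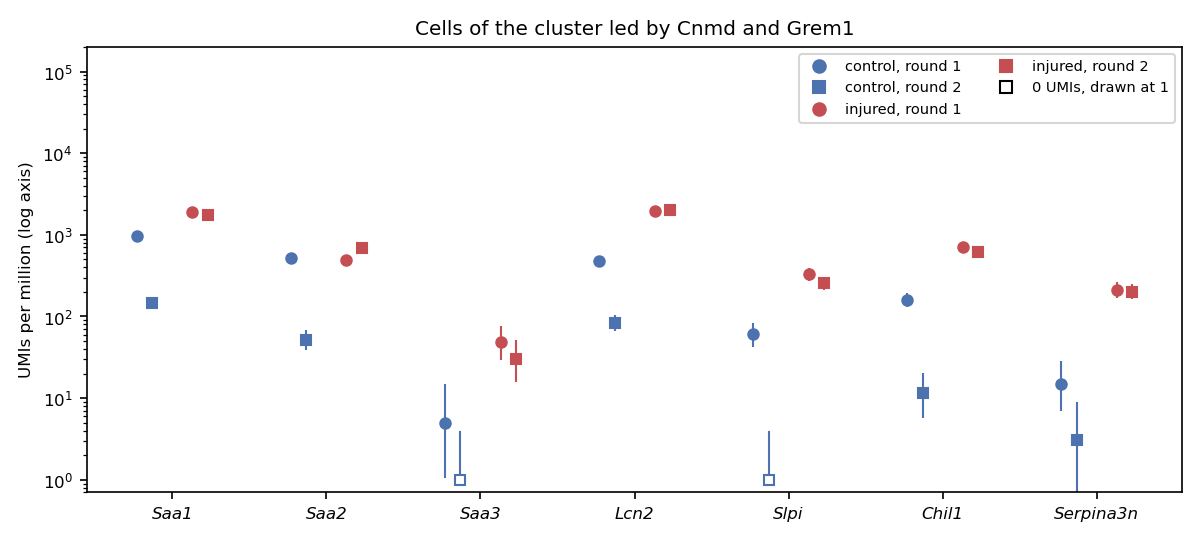
CPM (log axis) of the 7 genes in cells of the Cnmd and Grem1 cluster, by library, with 95% Poisson intervals; open squares mark libraries with 0 UMIs, drawn at 1. The injured libraries of Lcn2 sit at 1935 and 2029 CPM above controls at 474 and 83.9 CPM, and Saa2 is the only gene whose injured and control libraries overlap.

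The genes were concentrated in a minority of inner class cells and occurred together. The 39 cells richest in each gene, of 3846, held 34.8% of Lcn2, 51.5% of Saa1, 62.5% of Saa2, 89.5% of Saa3, 42.3% of Slpi, 44.6% of Chil1 and 29.8% of Serpina3n UMIs. Together the 7 genes exceeded 1% of a cell's UMIs in 21 of 204 and 5 of 257 inner class cells of the control libraries, and in 49 of 483 and 107 of 1025 of the injured ones. Without shared barcodes the first of these counts was 6 of 110 cells. The highest share was 18.1% of a cell's UMIs, in the round 2 injured library.

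**Figure D4:**
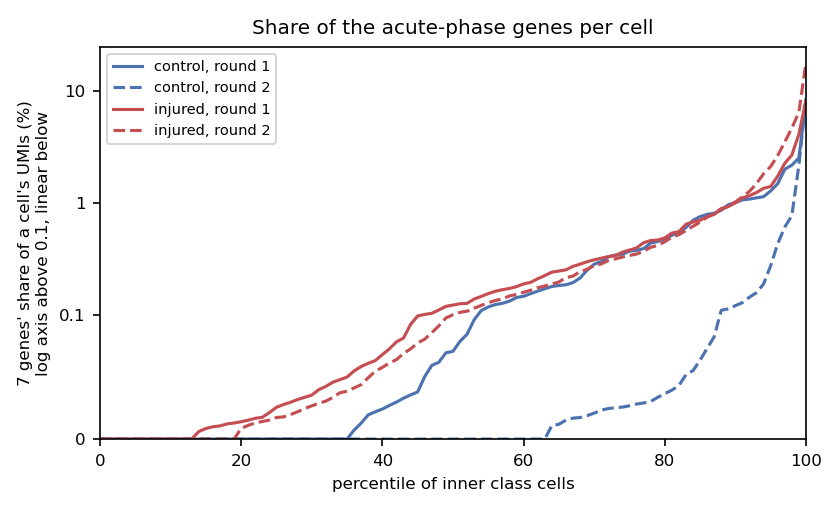
Share of a cell's UMIs taken by the 7 genes together, in percent (log axis above 0.1, linear below), at each percentile of the inner class cells of each library. The round 2 control curve leaves 0 last and stays below the other 3 until the highest cells, and the round 1 control, with shared barcodes included, runs close to the injured curves in its richest cells.

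Cells holding Saa1 more often held Lcn2. After thinning to 500 UMIs, 160 of 1023 inner class cells of the round 2 injured library held Saa1, and 65.0% of them held Lcn2, against 24.8% of cells without Saa1. Of the 33 cells with Saa3, 63.6% held Saa1, against 14.0% of the rest. Cells with Saa2 held Saa1 in 79.5% of cases, against 12.8% of cells without Saa2. In the round 1 injured library the Saa1 share was 32.5% of Lcn2 cells and 5.21% of the others. Slpi and Saa1 went together in the round 2 injured library (45.4% against 12.5%) and hardly in round 1 (15% against 13.8%). These are descriptions of cells that share libraries.

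Across 33 sums of cluster by library with at least 20 cells, the log2(CPM + 10) values of Saa1 and Saa2 correlated at r = 0.950, Lcn2 and Chil1 at 0.920, and Lcn2 and Saa1 at 0.878, and Saa3 was the least like the others (0.480 to 0.687). The sums share libraries and depth, so r is descriptive. Among 8008 other genes the most like Saa1 were Ereg (0.862), Rab11fip4, Hmga1, Mmp3 and Gdf5, and the most like Saa2 were Mmp3 and Col9a2 (both 0.822), Rab11fip4, Tnfrsf21 and Nos2. Lcn2 was nearest to Tnfrsf11b (0.842), Ereg, Scrg1, P3h2 and Gdf5, but with a pseudocount of 1 none of these 5 stayed among its 5 nearest (0 of 5), and 1 or 2 did when any library was left out. Saa3 kept 0 of its 5 without the round 2 injured library. Chil1 was nearest to Scrg1 (0.857), Stc2, Nos2, Tnfrsf11b and Gm15270. The protease inhibitors had nearest genes in common: Slpi had Prss46 (0.813), Gm41724, Cyp51, Orai2 and Ank, and Serpina3n had Scrg1 (0.845), Prss46, Gm15241, Stk38l and Gm41724. Saa3 had weaker neighbours, led by Nkd2 (0.700) and followed by Lss, Trpv4, Dpf3 and Aacs.

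Barcodes with few UMIs carried the same genes. In barcodes of 1 to 100 UMIs, which can hold free RNA or cells too poor in RNA to count, Lcn2 was at 210.4 CPM in the round 2 control library and at 1658 and 447 CPM in the injured libraries, so in round 1 the level outside cells matched that in cells. Of the 2554 Lcn2 UMIs behind the value of 1658 CPM, 1349 lay in 2843 barcodes with at least 5 UMIs of neutrophil markers, and without these it was 833 CPM (1009 CPM with a limit of 10). Slpi was at 23.2 CPM in control and at 299 and 66.2 CPM in injured libraries, and Saa3 at 3.94 CPM against 11.7 and 130.3 CPM. The round 1 control table lists no such barcodes. Cells of other types in the round 1 injured library spanned a wide range of Lcn2: endothelial-like cells were at 17.4 CPM, macrophage-like cells at 22.5 CPM and outer annulus or fibroblast-like cells at 208 CPM. In its unnamed clusters the cells led by mitochondrial genes were at 537 CPM, and 17 cells led by Krt18 and Krt8 were at 1162 CPM, from 10 UMIs (95% interval 557 to 2136 CPM). How far RNA from outside cells adds to the inner class values was not tested.

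**Figure D5:**
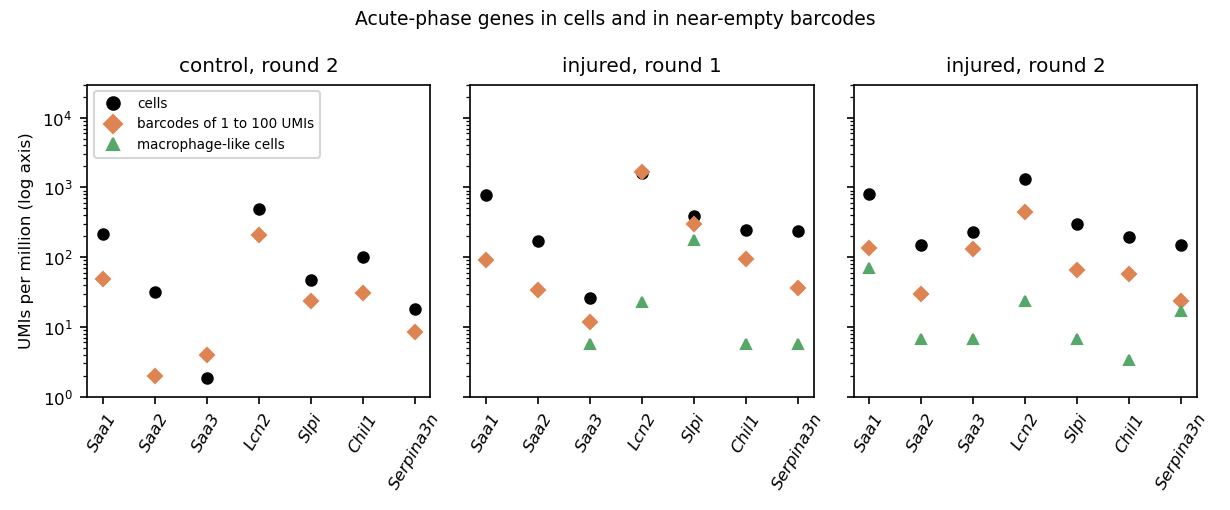
CPM (log axis) of the 7 genes in cells (black circles), in barcodes of 1 to 100 UMIs (orange diamonds) and in macrophage-like cells (green triangles, shown where at least 20 cells and 1 UMI were present), for the 3 libraries with near-empty barcodes. In the round 1 injured library Lcn2 is at 1617 CPM in cells, 1658 CPM in near-empty barcodes and 22.5 CPM in macrophage-like cells.

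Neutrophils are a well known source of Lcn2, and their RNA was found mostly in barcodes under the minimum of 250 genes, which are not counted as cells here. In cells the defining neutrophil genes were at or near 0: Ly6g had 1 UMI in the round 1 injured library and 0 in the others, Mmp8 had 2 there and 0 in the others, and Csf3r and Cxcr2 had at most 2 in any library. No neutrophil-like cluster formed. The 11 neutrophil markers summed to 44.2 and 9.25 CPM in control and to 55.6 and 21.1 CPM in injured cells. In barcodes under the minimum they summed to 2905 CPM in the round 2 control library and to 45323 and 1962 CPM in the injured libraries. Of these barcodes, 3371 in the round 1 injured library held at least 5 marker UMIs (a limit set after the data were seen), and they contained 2551 of the 3825 Lcn2 UMIs found under the minimum, at 13929 CPM, and 185 of 559 Slpi UMIs, but 0 of 155 Saa1 UMIs. The round 2 control and injured libraries had 1284 and 419 such barcodes, with 187 and 52 Lcn2 UMIs. Per Lcn2 UMI there were 26.3 marker UMIs under the minimum in the round 1 injured library and 0.0344 in its cells. In cells with under 5 marker UMIs Lcn2 was at 493 and 497 CPM in control and at 1564 and 1299.5 CPM in injured discs, close to its level in all cells. Few cells held any S100a8 UMI (46 of 778 and 80 of 1834 injured cells), so this limit could leave out few cells. The source of Lcn2 RNA in cells was not tested.

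In cells S100a8, an alarmin of neutrophils, stood at 14.1 and 2.32 CPM in control and at 28.9 and 13.1 CPM in injured discs. Its log2 change of 1.55 ± 0.789 did not pass edgeR's test (adjusted p = 0.716), and with the replicate block it passed at 1.64 ± 0.401 (adjusted p = 0.0233). The macrophage markers moved with the injured group, at 101 and 248 CPM against 408 and 440.3 CPM, and their part in the results was not tested.

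The cytokines that induce acute-phase genes were mostly sparse. Of 12 listed, 6 were tested over all cells and none passed edgeR's test without the replicate block, although 2 had an unadjusted p under 0.05 and DESeq2 called 1, Il11. Il11, a gp130 cytokine with the most UMIs of the list, stood at 103 and 81.0 CPM in control and at 524 and 203 CPM in injured discs, a log2 change of 2.03 ± 0.498 (adjusted p = 0.269). With the block Il11 rose by 1.90 ± 0.293 on the log2 scale (adjusted p = 0.000932) and Il6, the classical inducer in liver, fell by 1.34 ± 0.271 (adjusted p = 0.00725). Both also passed in the inner class with the block (adjusted p = 3.14e-05 and 0.0249). In disc cells together Il11 passed (adjusted p = 0.00658) and Il6 did not (adjusted p = 0.127), and in the Cnmd and Grem1 cluster Il6 had a log2 change of the other sign, 1.35 ± 0.412 (adjusted p = 0.0532). Lif, a related cytokine, had a log2 change of 0.40 ± 0.664 (adjusted p = 0.942). The list's median log2 change was 0.70, beside -0.01 over all genes tested.

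Of 14 receptors for those cytokines 11 were tested and none passed without the block (4 at an unadjusted p under 0.05, 0 with DESeq2). With it Tnfrsf1b, a tumour necrosis factor receptor, rose by 1.81 ± 0.382, and Il1r1, the signalling interleukin-1 receptor, fell by 1.17 ± 0.268. The interleukin-6 receptor Il6ra fell by 1.05 ± 0.284 and the Lif receptor Lifr fell by 1.44 ± 0.263. The 3 falls also passed in the inner class with the block, whereas Tnfrsf1b did not (adjusted p = 0.0634, and 0.116 in disc cells). Macrophage-like cells numbered 1 and 3 in control and 37 and 90 in injured libraries, and their part in the Tnfrsf1b call was not tested. The receptors with the most UMIs, Tnfrsf1a and Il6st, had log2 changes of 0.38 ± 0.409 and -0.21 ± 0.351 without the block. Of 14 transcription regulators 13 were tested, with a median log2 change of -0.08. None passed without the block (1 at an unadjusted p under 0.05, 0 with DESeq2), and Bcl3, an atypical I-kappaB protein, rose by 1.24 ± 0.342 with it, and passed in the inner class too (adjusted p = 0.0135). Cebpd, the C/EBP factor of the acute phase, was at 986 and 515 CPM in control and at 1289 and 411 CPM in injured discs. In the outer class, whose mixture of clusters differed between the groups, with the block Cebpd fell by 1.42 ± 0.412, Cebpb fell by 1.2 ± 0.406 and Socs3 fell by 1.18 ± 0.412. Over all cells the inhibitor Nfkbia changed by -0.13 ± 0.357.

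Targets and partners of the 7 proteins were in part too sparse to test. Of 8 proteases that Slpi and Serpina3n or their relatives act on, 4 were found in at least 5 cells and none was abundant enough to test. Prtn3 had 37 and Elane, neutrophil elastase, 30 UMIs in the cells of all libraries. Of 16 receptors and binding partners 10 were tested, none passed without the block (0 at an unadjusted p under 0.05 and 0 with DESeq2), and the scavenger receptor Cd36 rose by 1.17 ± 0.332 with it. Cd36 is among the leading genes of the macrophage-like cluster and was too sparse to test in disc cells, so its call does not extend to them. In other sets of cells the block gave calls for other partners: Plscr1 rose by 1.34 ± 0.438 in the inner class and Tlr2 by 1.21 ± 0.361 in the Cnmd and Grem1 cluster. Cd44 rose by 1.85 ± 0.454 and Anxa2 by 1.60 ± 0.407 in the outer class, whose mixture of clusters differed between the groups. Over all cells Anxa2 and Cd44, with the most UMIs of them, had log2 changes of 0.84 ± 0.376 and 0.44 ± 0.630. In the 10 iron-handling genes, listed because of Lcn2, 0 passed in either fit over all cells (1 and 5 at an unadjusted p under 0.05, and 0 with DESeq2). With the block, the iron exporter Slc40a1 fell by 2.23 ± 0.564 and Bdh2 rose by 1.78 ± 0.558 in the inner class, where 7.71% of all genes were called, and the metal transporter Slc39a14 rose by 1.38 ± 0.362 in the Cnmd and Grem1 cluster. The ferritin chains Fth1 and Ftl1 had log2 changes of 0.52 ± 0.376 and 0.20 ± 0.487.

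Among 25 other acute-phase proteins 11 were tested, with 6 log2 changes above 0 and a median of 0.51. None passed without the block (4 at an unadjusted p under 0.05, and 1, Lbp, with DESeq2). Lbp, the lipopolysaccharide-binding protein, stood at 196 and 314 CPM in control and at 642 and 732 CPM in injured discs, and rose by 1.53 ± 0.284 with the block (adjusted p = 0.00427). The metallothioneins Mt1 and Mt2, with the most UMIs of the list, had log2 changes of 0.95 ± 0.394 (adjusted p = 0.607) and 0.51 ± 0.391 (adjusted p = 0.852). In the inner class with the block Lbp rose by 1.69 ± 0.357, the complement factor Cfb rose by 2.59 ± 0.803 and haptoglobin, Hp, fell by 1.83 ± 0.606. In the outer class, again between unlike mixtures of clusters, Cfb rose by 1.86 ± 0.599, and C3 and ceruloplasmin, Cp, fell by 1.71 ± 0.410 and 1.48 ± 0.415. Within the Cnmd and Grem1 cluster C3, the central complement component, rose by 1.35 ± 0.335 with the block (adjusted p = 0.00504), Lbp by 1.34 ± 0.352 and Steap4, a metalloreductase, by 2.05 ± 0.528, whereas C3 over all cells had a log2 change of -0.62 ± 0.243 in the same kind of fit.

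Close relatives of the 7 genes were mostly sparse: of 19, 10 were found in at least 5 cells and 3 were tested. Chit1, the enzymatically active relative of Chil1, stood at 15 and 32.9 CPM in control and at 106 and 105 CPM in injured discs, with groups well apart. Its log2 change was 2.17 ± 0.436 without the block (adjusted p = 0.170), 2.16 ± 0.511 with DESeq2 (adjusted p = 0.00318) and 2.20 ± 0.295 with the block (adjusted p = 0.000268). In the Cnmd and Grem1 cluster Chit1 was at 3.35 and 4.14 CPM in control and at 59.2 and 41.4 CPM in injured cells, and passed with the block (log2 change 3.69 ± 0.602). Wfdc2, a relative of Slpi, had 25 UMIs in all and fell by 3.36 ± 0.781 with the block, but without the shared barcodes it had 17 UMIs and was too sparse to test. Wfdc17 changed by 1.83 ± 0.774 without passing (adjusted p = 0.625).

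Immediate early and dissociation-response genes, which mark handling of cells as well as signalling, had log2 changes of the other sign. All 15 were tested, 14 had a log2 change below 0, and the median was -1.04. None passed without the block (4 at an unadjusted p under 0.05, 0 with DESeq2), and with it 11 fell and 1 rose over all cells, where 6.70% of all genes were called. In the inner class, where the block gave calls for 7.71% of all genes, 5 fell and 1 rose. In the outer class, where it did so for 9.51% between unlike mixtures of clusters, 6 fell and 0 rose. In disc cells together 4 fell and 0 rose with the block, and the last section counts all genes called there. Over all cells Fos fell by 1.66 ± 0.327, Egr1 fell by 1.64 ± 0.344 and Ier3 rose by 1.17 ± 0.316 with the block, and all 3 passed in the inner class too. Their part in the levels of the 7 genes was not tested.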

How the data were processed

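UMI counts per gene and barcode are the deposited unit: the authors aligned reads to mm10 and counted with Cell Ranger, per the labels, and the count matrices name version 6.0.0 for the round 1 control library and 4 for the other 3, per the file headers. The round 1 control matrix holds 444 called barcodes and the others hold all barcodes, so free RNA could be read in 3 libraries. Totals were 1114210 and 9891258 UMIs in the control libraries and 8943537 and 16972879 in the injured ones. The 7 genes, the gene lists and the markers were chosen with earlier results of these data known.

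Barcodes with at least 250 genes counted as cells, and a gene had to be present in 5 of them, the study's own filters. Clustering (2000 variable genes without the 7, 30 principal components, 20 neighbours, Leiden resolution 1) was named from at least 3 markers. Clusters whose round 1 control cells were shared barcodes of similar depth stayed unnamed, a rule set after the data were seen. Scrublet called 12 doublets, which were kept except in an alternative. Summed counts were tested with edgeR 4.0.16 (quasi-likelihood, TMM, filterByExpr, two-sided, Benjamini-Hochberg, threshold 0.05) in R 4.3.3, checked on simulated data, with 2 residual degrees of freedom, or 1 with the replicate block. The block is a true pairing, since the labels say that both groups share animals, and same-round libraries deviated together from their group means (r = 0.59 over 12142 genes). DESeq2 1.42.0 was an alternative. Named genes were the 7, the 5 most like each, and of each list up to 4 called genes per direction and the 2 with the most UMIs; those of a class or cluster were added after the data were seen. Nothing says that rounds are more than technical repeats, so p-values measure the spread between libraries. CPM is not scaled by gene length.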

Additional observations from a re-analysis of the deposited data

Results flagged for a closer look

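Of the 7 genes 2 went opposite ways in the 2 rounds, Saa1 in the inner class only. The difference between rounds was not tested. Over all cells, Saa2 in injured discs was 0.540 times the control level in round 1 (95% Poisson interval 0.478 to 0.612) and 4.67 times in round 2 (3.66 to 6.05). In the inner annulus or cartilage-like class, Saa2 was at 0.413 times the control in round 1 and 4.17 times in round 2. Saa1 in the same class was at 0.828 times the control in round 1 and 3.37 times in round 2. The ratio of Saa2 to Saa1 UMIs was 0.431 in the round 1 control library, 0.147 in the round 2 control, and 0.218 and 0.182 in the injured libraries.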

How the results depend on the processing

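The number of genes called depended strongly on the design. Over all cells edgeR called 10 genes, and 803 with the replicate block, 180 with the DESeq2 test, 34 without a filter on low counts, 0 with at least 500 genes per cell, 29 with the UMI minimum of control round 1, 19 under 10% mitochondrial UMIs, 2 without shared barcodes, 413 without them and with the replicate block, 17 without doublets and 3 without unnamed clusters; leaving out each library gave 124 to 271. For disc cells together the 3 calls became 453 with the replicate block, 121 with DESeq2, 37 without the filter, 0 at 500 genes, 0 under 10% mitochondrial UMIs and 167 without shared barcodes and with the block, and 0 to 115 leaving out a library. The inner class went from 0 to 823 with the replicate block, 96 with DESeq2, 32 without the filter, 12 at 500 genes, 13 with the UMI minimum, 15 under 10% mitochondrial UMIs, 15 without shared barcodes and 638 with the block as well, and 0 to 211 leaving out a library. The outer class went from 69 to 456 with the replicate block, 252 without the filter, 45 under 10% mitochondrial UMIs, 456 without shared barcodes and with the block and 8 at resolution 0.5, and 21 to 511 leaving out a library. The cause of these shifts was not tested. The lowest share of a gene's UMIs in the inner class, 89.3%, became 92.4% with the 7 genes among the variable genes and ranged from 88.9% to 93.5% leaving out a library. Both injured libraries lay above both controls for 6 of 7 genes over all cells, and for 6 to 7 leaving out a library.

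The log2 change of Saa2 over all cells was above 0 in 5 and below 0 in 10 of 15 settings, from -0.94 to 2.43. Saa1 ranged from 0.18 to 2.00, Saa3 from 2.83 to 6.26, Lcn2 from 1.5 to 1.87, Slpi from 2.00 to 2.98, Chil1 from 0.83 to 1.19 and Serpina3n from 2.83 to 3.72, above 0 in all 15. Of the 35 most similar genes listed, 18 stayed with a pseudocount of 1. With 2 libraries per group, 1 of them of 1114210 UMIs, and with control cells shallower than injured ones, low genes such as Saa3 in control discs (7 and 4 UMIs) rest on very few molecules.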
